A study of Mus musculus with 48 samples.

Results

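The genes described here handle lipid at 4 points: storage in droplets (*Plin2*, *Hilpda*), uptake through scavenger receptors (*Msr1*, *Cd36*, *Olr1*), esterification and intracellular binding (*Soat1*, *Fabp4*, *Fabp5*) and sterol efflux (*Abca1*, *Abcg1*). They are 10 of the 24973 genes of the deposited table, chosen by symbol, and all 10 were found. RNA was sequenced from neurovascular cells of male C57BL/6 wild-type mice aged 12 to 15 weeks. In every mouse the right middle cerebral artery was closed with a filament for 1 h and reopened for 23 h (transient middle cerebral artery occlusion, tMCAO), so both hemispheres come from operated animals. The control is the contralateral hemisphere of the stroke mice, not a sham-operated brain. Microglia (MG), astrocytes (AC), pericytes (PC) and endothelial cells (EC) were sorted from ipsilateral (ischemic) and contralateral hemispheres pooled from 3 to 4 mice, which gave 8 groups of *n* = 6 and 48 libraries. The gates were CD45low/CD11b+ for MG, VE-cadherin+ for EC, NG2+/PDGFRβ+ for PC and ACSA2high for AC, and per the study's methods EC, PC and AC were taken from CD45- cells.

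A cell stores excess fatty acids and cholesterol as neutral lipid in droplets, which are coated by perilipins such as PLIN2. HILPDA, a hypoxia-inducible protein, inhibits the lipase that empties droplets. Macrophages and microglia take up modified lipoproteins and myelin debris through scavenger receptors such as MSR1, CD36 and the lectin-like receptor OLR1, SOAT1 esterifies the cholesterol for storage, and ABCA1 and ABCG1 export it to apolipoprotein particles.

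Values are normalized counts, and the sum over genes lay between 10549900 and 16942165 per library. By the spacing of low values, a single read was worth between 0.669 and 2.366 normalized counts, so that 3 reads, used as the floor of detection, equalled 2 to 7 normalized counts. The estimated reads on genes ranged from 4900000 to 17100000, with the lowest number in replicate 3 of ipsilateral MG. The titles of the 12 ipsilateral PC and MG libraries name the opposite cell type from their column names. The column names were used, since *Csf1r*, the receptor for a microglial growth factor, lay between 23680 and 106556 in the columns named ipsilateral MG against 0 to 16058 in those named ipsilateral PC. Conversely, *Pdgfrb*, the pericyte growth factor receptor used in the sort, lay between 6375 and 30885 in the columns named ipsilateral PC against 56 to 637 in ipsilateral MG.

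**Figure D1:**
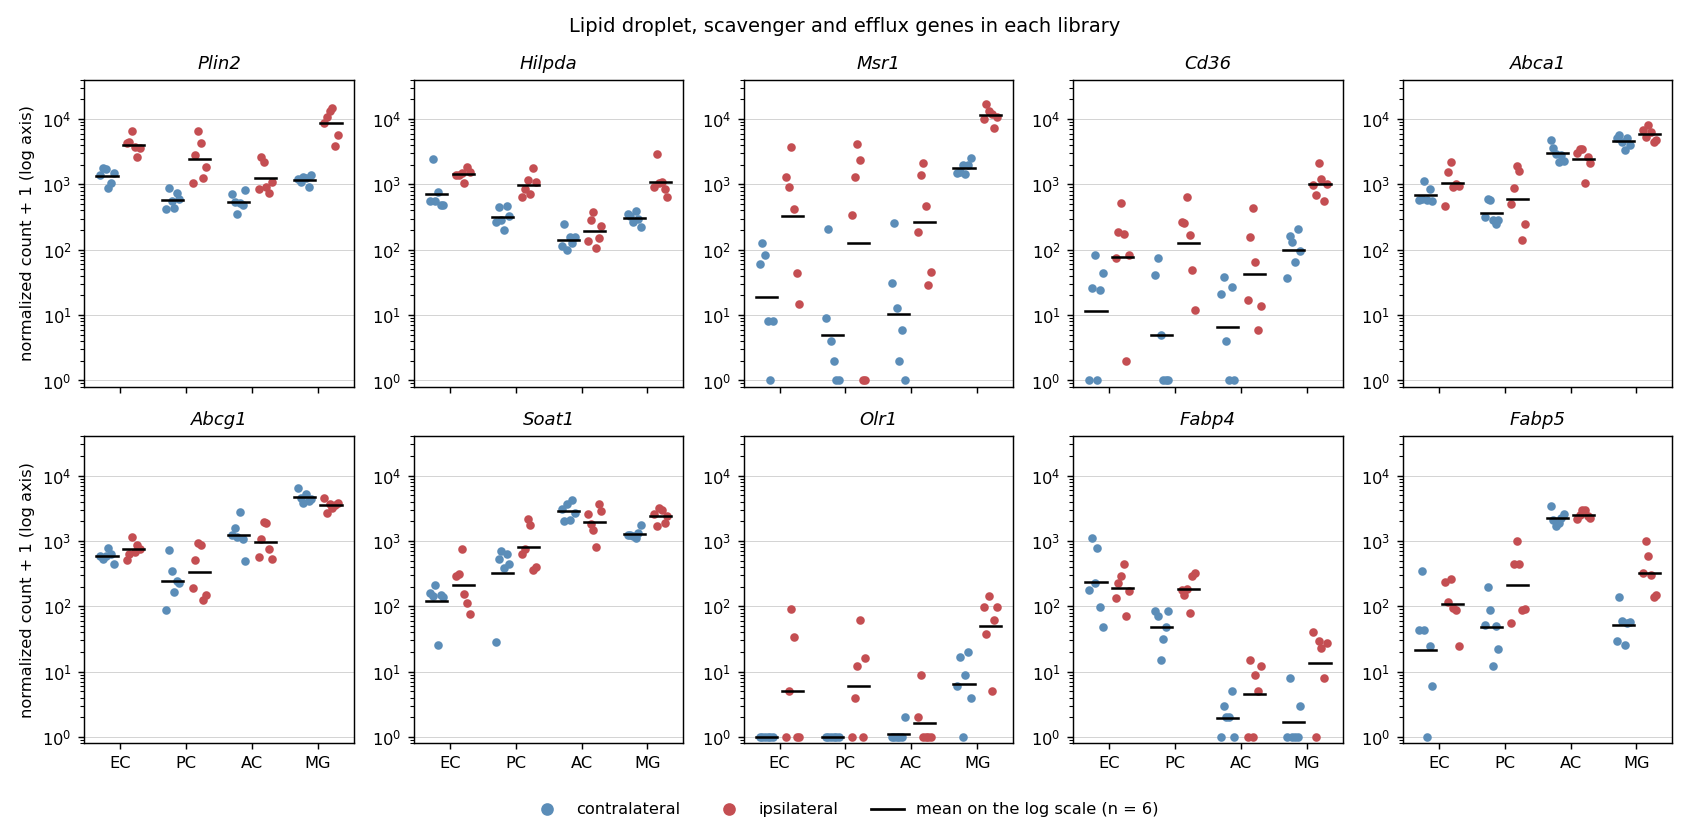
Normalized count + 1 on a log axis of the 10 genes in each of the 48 libraries, by cell type, with contralateral libraries in blue, ipsilateral libraries in red and the mean on the log scale as a bar (*n* = 6). In MG all 6 ipsilateral points of *Plin2*, *Hilpda*, *Msr1*, *Cd36* and *Fabp5* lie above all 6 contralateral points, and those of *Msr1* spread from 14 to 3772 in EC, from 0 to 4178 in PC and from 28 to 2129 in AC.

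In microglia, 6 of the 10 genes rose in the ischemic hemisphere (*Plin2*, *Hilpda*, *Msr1*, *Cd36*, *Soat1* and *Fabp5*) and 0 fell. A gene was called when limma gave an adjusted *p* of at most 0.05, the fold change was at least 1.5 in either direction and more than 10 normalized counts were present in all 6 libraries of a hemisphere. Of all 13300 genes tested in MG, 4.29% were called higher and 6.27% lower. The median log2 fold change was 2.66 over the 10 genes and −0.18 over all genes tested. With the spread pooled over all 48 libraries, 3 of the 10 genes were called in MG, namely *Plin2*, *Hilpda* and *Fabp5*. With cell types taken from the sample titles, *Msr1*, *Cd36* and *Soat1* were not called in MG, and the 6 genes called were 4 higher and 2 lower. That comparison sets the columns named contralateral MG against those named ipsilateral PC. Since *Csf1r* and *Pdgfrb* match the column names, it mixes cell types and does not measure the stroke change in MG.

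Per kb of exon, the order of the genes in microglia differed between the hemispheres. In contralateral MG the sterol transporters stood at the top, with mean normalized counts per kb of 651 for *Abcg1* and 448 for *Abca1*, followed by 339.5 for *Plin2*, 288 for *Msr1* and 281 for *Hilpda*. In ipsilateral MG the mean per kb was 2709 for *Plin2*, 1851 for *Msr1* and 1129 for *Hilpda*, against 579 for *Abca1* and 491 for *Abcg1*. *Soat1* lay at 132 and 251 per kb, *Cd36* at 32.2 and 307, and *Fabp5* at 16.7 and 116.5, in contralateral and ipsilateral MG respectively. *Olr1*, at 2.38 and 20.5 per kb, and *Fabp4*, at 0.334 and 4.53 per kb, were the least abundant of the 10 genes in both hemispheres. This order is a description and was not tested. It depends on the divisor, which is the union of all annotated exons of a gene. For *Fabp4* the union of 4489 bases covers the whole gene, and for *Fabp5* it is 3567 bases. A transcript shorter than the union would give a higher value per kb, so *Fabp5* could stand higher in the order. Without division *Olr1* and *Fabp4* also had the lowest mean counts in both hemispheres.

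*Plin2* (ENSMUSG00000028494, GRCm38 chr4:86656565-86670060, minus strand) ranged from 905 to 1381 normalized counts in contralateral MG, with a median of 1227.5. In ipsilateral MG it ranged from 3917 to 14693, with a median of 9784.5. The hemispheres did not overlap, and the 2 lowest ipsilateral libraries were replicates 5 and 6. The mean increased from 1192 ± 170.3 to 9515 ± 4168 (SD, *n* = 6), a log2 fold change of 2.87 (SE 0.28, 7.31-fold, limma adjusted *p* = 2.89e-05), and *Plin2* was higher in 6 of 6 pairs of libraries that share a replicate number.

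*Hilpda* (ENSMUSG00000043421, chr6:29272488-29275446, plus strand) had a lowest value of 219, a median of 313.5 and a highest value of 398 in contralateral MG. The ipsilateral values were 643, 987.5 and 2914. All ipsilateral libraries exceeded all contralateral ones, and replicate 2 stood above the remaining ipsilateral libraries, whose highest value was 1097. *Hilpda* rose by a log2 fold change of 1.84 (SE 0.30, 3.57-fold, limma adjusted *p* = 0.00203). In replicate 2 of ipsilateral MG the summed neutrophil markers were also highest, at 19569 against 4385 to 7081 in the remaining 5 libraries, and their part in the *Hilpda* value was not tested. Without replicate 2, *Hilpda* was still called in MG, as it was with each of the 6 replicates left out.

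Sequence upstream of the start is shown for the droplet gene *Plin2*, which was called in 3 cell types, and for *Soat1* and *Abca1*, of which the first was called in MG and the second was not. The RefSeq promoter table (GRCm38.p6) held 6 of the 10 genes and 7 start sites, since *Hilpda* has a pair of them. *Abcg1*, *Msr1*, *Fabp4* and *Fabp5* had no entry. Each stretch covers the 250 bases before the start, 5′ to 3′ on the strand of the gene, with capitals marking the core of the hypoxia response element bound by HIF (ACGTG or GCGTG on either strand). The positions are chr4:86670060-86670309, chr1:156474329-156474578 and chr4:53159896-53160145, all on the minus strand.
Plin2: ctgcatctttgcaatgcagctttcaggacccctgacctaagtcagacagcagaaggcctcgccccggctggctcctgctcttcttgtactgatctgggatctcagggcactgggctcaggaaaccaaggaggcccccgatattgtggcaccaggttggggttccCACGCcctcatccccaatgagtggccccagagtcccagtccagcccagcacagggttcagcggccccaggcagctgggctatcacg
Soat1: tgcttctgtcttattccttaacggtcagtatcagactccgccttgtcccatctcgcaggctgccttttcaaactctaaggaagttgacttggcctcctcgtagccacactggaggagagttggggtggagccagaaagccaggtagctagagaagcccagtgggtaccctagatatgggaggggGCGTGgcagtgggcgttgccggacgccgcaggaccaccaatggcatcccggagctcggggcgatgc
Abca1: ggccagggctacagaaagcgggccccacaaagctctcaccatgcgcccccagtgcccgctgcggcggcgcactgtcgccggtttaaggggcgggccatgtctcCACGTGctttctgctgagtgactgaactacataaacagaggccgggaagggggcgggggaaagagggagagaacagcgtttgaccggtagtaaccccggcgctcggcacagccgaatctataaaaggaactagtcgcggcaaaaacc

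This core was present in 4 of the 7 windows, against 38.6% of the 32851 promoter windows of the same length in the table. Each stretch shown above holds it. The windows of *Cd36*, which was called in MG, and of *Olr1*, which was not, held none. The *Cd36* window (chr5:17835897-17836146) lies inside the annotated gene, and the bases after its start were not found in an annotated transcript of *Cd36*. Other starts of *Cd36* were not searched, so the result holds for this window only. In *Plin2* the core began at position −86 from the start, and in *Soat1* at −66. The match in *Abca1* read the same on both strands, from −147, and lay within the E-box CACGTG. *Hilpda* had 3 cores before its second start (6.58% of all windows had at least 3) and none before its first. Since part of that window is transcribed from the first start, short stretches with 10 bases on either side, cut at the start, are given.
Hilpda −111, chr6:29272505-29272529: accgcgagccGCGTGctttccgtga
Hilpda −43, chr6:29272573-29272597: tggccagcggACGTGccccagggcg
Hilpda −8, chr6:29272608-29272625: ggttcggtacGCGTGcgc

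The AP-1 motif TGANTCA was present in 2 of the 7 windows and in 6.75% of all windows, namely before the second start of *Hilpda* and before *Olr1*. For *Olr1*, which encodes an inducible receptor for oxidized lipoprotein, it began at −60 with the match in capitals.
Olr1, chr6:129507209-129507235, minus strand: ccgcgacggtTGAGTCAtcctctgcta
Exact direct repeats of AGGTCA spaced by 1 base (0.0335% of all windows) or by 4 bases (0.0152%) were found in 0 of the 7 windows. They are the ideal form of the patterns read by PPAR and LXR receptors. Half-sites that depart from AGGTCA were not searched, and exact repeats are rare in all windows. The result therefore does not show that the 7 windows, that of *Abca1* included, lack such elements. These matches describe the letters only, and binding was not measured.

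Among the scavenger receptors, *Msr1* (ENSMUSG00000025044, chr8:39581685-39642673), the class A receptor for modified lipoproteins, was the most abundant per kb in microglia. It ranged from 1427 to 2520 in contralateral MG, with a median of 1754, and from 7380 to 17086 in ipsilateral MG, with a median of 11409.5. The hemispheres were well separated, with the lowest ipsilateral library, replicate 5, above every contralateral one. *Msr1* rose from 1829 ± 423 to 11743 ± 3271 (SD, *n* = 6), a log2 fold change of 2.67 (SE 0.21, limma adjusted *p* = 4.33e-06).

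*Cd36* (ENSMUSG00000002944, chr5:17781690-17888747), the class B receptor that also carries fatty acids across the membrane, ranged from 36 to 209 in contralateral MG, with a median of 113.5. In ipsilateral MG the lowest value was 563, the median 1003 and the highest 2151, so the hemispheres were again separate. *Cd36* rose in 6 of 6 pairs (log2 fold change 3.32, SE 0.41, limma adjusted *p* = 0.000241).

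*Olr1* (ENSMUSG00000030162, chr6:129485244-129507165) was close to the floor in contralateral MG, with a lowest value of 0, a median of 6.5 and a highest value of 19. In ipsilateral MG the values were 96, 37, 144, 4, 61 and 97 in replicates 1 to 6. It was higher in 5 of 6 pairs and lower in replicate 4. The log2 fold change was 2.96 (SE 0.90) with a limma adjusted *p* of 0.0478, but replicate 4 did not reach more than 10 normalized counts and *Olr1* was therefore not called. Without replicate 4, the library that went the other way, it was called, with a log2 fold change of 3.72 and a limma adjusted *p* of 0.0249. That was 1 of the 6 sets that lack a replicate, and in the others it was not called, with limma adjusted *p* up to 0.193. With the replicate number as a block the limma adjusted *p* was 0.0753.

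*Soat1* (ENSMUSG00000026600, chr1:156424525-156474331), which forms cholesteryl esters for droplets, ranged from 1090 to 1750 in contralateral MG, with a median of 1231.5. It ranged from 1679 to 3185 in ipsilateral MG, with a median of 2494. The hemispheres overlapped by a single library each, replicate 6 contralateral and replicate 2 ipsilateral. *Soat1* rose 1.87-fold (log2 fold change 0.90, SE 0.19, limma adjusted *p* = 0.00711) and was higher in 6 of 6 pairs.

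*Fabp5* (ENSMUSG00000027533, chr3:10012548-10016607), a cytosolic carrier of long-chain fatty acids, ranged from 25 to 136 in contralateral MG, with a median of 55.5. In ipsilateral MG it ranged from 140 to 993, with a median of 311.5, and the lowest ipsilateral value stood just above the highest contralateral one. *Fabp5* rose by a log2 fold change of 2.65 (SE 0.52, limma adjusted *p* = 0.00529). *Fabp4* (ENSMUSG00000062515, chr3:10204088-10208576), its relative of adipocytes, macrophages and capillary endothelium, had values of 0, 7, 0, 0, 0 and 2 in contralateral MG and of 39, 0, 28, 22, 7 and 26 in ipsilateral MG. *Fabp4* was not called (log2 fold change 2.98, SE 1.02, limma adjusted *p* = 0.0725), and 5 of the 6 contralateral libraries were at or under 3 reads.

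The efflux transporters did not pass the test in microglia. *Abca1* (ENSMUSG00000015243, chr4:53030787-53159895), which loads cholesterol onto lipid-poor apolipoprotein, ranged from 3342 to 5763 in contralateral MG, with a median of 4786.5. The ipsilateral range of 4391 to 8228, with a median of 5868.5, overlapped it. The log2 fold change was 0.36 (95% interval −0.04 to 0.76, limma adjusted *p* = 0.221). *Abcg1* (ENSMUSG00000024030, chr17:31057698-31115777), which loads cholesterol onto mature lipoprotein particles, ranged from 3796 to 6401 in contralateral MG and from 2644 to 4577 in ipsilateral MG, with medians of 4479 and 3640. *Abcg1* was lower in the ipsilateral library of 6 of 6 pairs, with a log2 fold change of −0.40 (95% interval −0.77 to −0.04, limma adjusted *p* = 0.135).

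**Figure D2:**
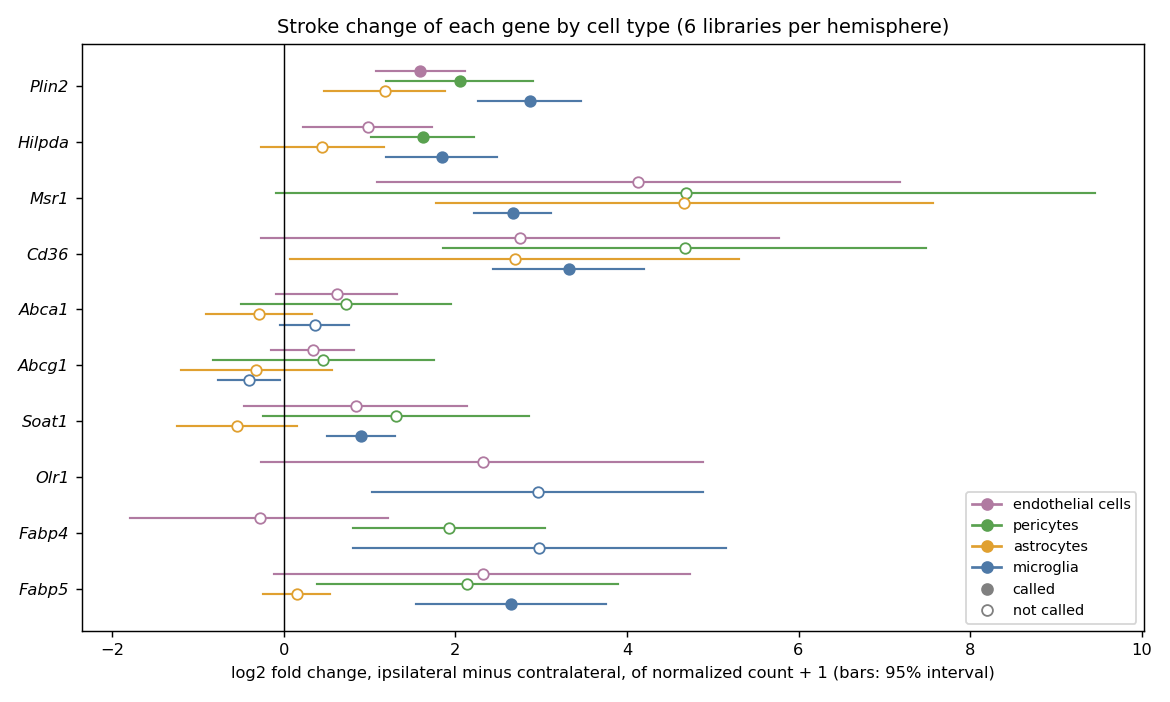
Log2 fold change of normalized count + 1, ipsilateral minus contralateral, for the 10 genes in EC, PC, AC and MG, with points for the estimate, bars for the 95% interval (*n* = 6 per hemisphere), filled points for called genes and no point where a gene was too low to test. The 9 filled points are *Plin2* in EC, PC and MG, *Hilpda* in PC and MG, and *Msr1*, *Cd36*, *Soat1* and *Fabp5* in MG, and the intervals of *Msr1* and *Cd36* are narrower in MG than in the remaining cell types.

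The changes in microglia were larger in replicates 1 to 4 than in replicates 5 and 6 for all 6 called genes, which is a description of 2 sets of libraries and was not tested. The mean log2 difference was 3.26 against 2.09 for *Plin2*, 2.0 against 1.52 for *Hilpda*, 3.00 against 1.99 for *Msr1* and 3.78 against 2.41 for *Cd36*. For *Soat1* it was 1.11 against 0.49, and for *Fabp5* 3.30 against 1.35. With replicates 5 and 6 alone, *Soat1* and *Fabp5* were not called (limma adjusted *p* of 0.188 and 0.0701). The summed marker lists of other myeloid cells did not all move one way with the hemisphere in these libraries. All 10 monocyte and macrophage markers were detected, and their sum ranged from 660 to 2577 in contralateral and from 3518 to 8691 in ipsilateral MG. The sum of the 6 border macrophage markers ranged from 435 to 2223 and from 1193 to 4554. The sum of the 9 neutrophil markers was lower in the ipsilateral library of 5 of 6 pairs and higher in replicate 2, with ranges of 6423 to 8044 and 4385 to 19569. In contralateral EC, PC and AC this sum was at most 1724, 1659 and 1482, so it was already high in MG on the contralateral side. Its fall in MG is therefore not a measure of fewer neutrophils. The sum of the 4 microglia markers, in contrast, ranged from 180699 to 227678 in contralateral and from 91419 to 163197 in ipsilateral MG. The part of other myeloid cells in the values of the 10 genes was not tested. In sorted pools, more cells of a type and more RNA per cell cannot be told apart.

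In endothelial cells, *Plin2* was the only gene of the 10 that was called, and it rose. The background in EC was 0.362% of 13242 genes called higher and 0.128% lower. *Plin2* ranged from 870 to 1765 in contralateral EC, with a median of 1454.5, and from 2615 to 6523 in ipsilateral EC, with a median of 4028.5. The hemispheres did not overlap. The log2 fold change was 1.59 (SE 0.24, 3.01-fold, limma adjusted *p* = 0.01), and *Plin2* was higher in 6 of 6 pairs. Without replicate 4 and without replicate 6 the limma adjusted *p* was 0.0519 and 0.0741, and the gene was not called, while the log2 fold change stayed at 1.49 and 1.66. The sum of the 9 neutrophil markers had a median of 382.5 in contralateral and of 2345 in ipsilateral EC, and was highest in replicate 3 (10452), the library with the highest *Plin2*. The monocyte and macrophage sum ranged from 20779 to 34577 and from 15026 to 36504. In every EC library it exceeded all MG libraries (at most 8691), so in EC this sum is not a measure of monocyte RNA. The part of other myeloid cells in the *Plin2* values was not tested.

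*Hilpda* in endothelial cells depended on a single control library. The contralateral values were 563, 2481, 558, 763, 478 and 487 in replicates 1 to 6, and the ipsilateral values were 1372, 1374, 1470, 1039, 1841 and 1534. Contralateral replicate 2 stood above every ipsilateral library, whereas the remaining 5 contralateral libraries stood below all of them. The log2 fold change was 0.98 (SE 0.35, limma adjusted *p* = 0.27), and without replicate 2 it was 1.34 with *Hilpda* called (limma adjusted *p* = 0.0169). In the same library *Fabp5* was 348 against 0 to 43 in the remaining contralateral EC libraries, and *Fabp4* was at its highest value of 1121. The sum of the 4 choroid plexus markers was 111058 there against 468 to 20869 in the remaining contralateral EC libraries, and that of the 5 erythroid markers was 78354 against 6242 to 28129. Their part in these values was not tested.

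*Fabp4* was higher in endothelial cells than in the remaining cell types on the contralateral side, with a lowest value of 47, a median of 202 and a highest value of 1121. On the ipsilateral side it ranged from 70 to 447, with a median of 201.5. Its log2 fold change was −0.28 (95% interval −1.79 to 1.22, limma adjusted *p* = 0.926). Without replicate 2 its sign turned, at 0.12. *Abca1* and *Abcg1* gave log2 fold changes of 0.62 (95% interval −0.09 to 1.32) and 0.34 (95% interval −0.15 to 0.82) in EC and were not called. *Soat1* ranged from 25 to 214 in contralateral EC and from 75 to 758 in ipsilateral EC, with medians of 147 and 224.5, and *Fabp5* from 0 to 348 and from 24 to 259, with medians of 33 and 105. Neither was called (limma adjusted *p* of 0.641 and 0.442). In replicates 5 and 6 alone *Soat1* gave −0.66, against 1.59 in replicates 1 to 4, and *Fabp4* gave 0.70 against −0.77.

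In pericytes, both droplet genes rose, and they were the 2 called of the 9 genes that could be tested. Of 13597 genes tested in PC, 0.441% were called higher and 0.581% lower. *Plin2* ranged from 426 to 893 in contralateral PC, with a median of 575.5, and from 1069 to 6655 in ipsilateral PC, with a median of 2334. This was a log2 fold change of 2.05 (SE 0.40, 4.14-fold, limma adjusted *p* = 0.0281). *Hilpda* ranged from 203 to 470 in contralateral PC, with a median of 309.5, and from 648 to 1777 in ipsilateral PC, with a median of 966. Its log2 fold change was 1.62 (SE 0.28, 3.07-fold, limma adjusted *p* = 0.0171). For both genes all ipsilateral libraries lay above all contralateral ones, and the gene was higher in 6 of 6 pairs. These calls were not stable to the loss of a library. *Plin2* was called in 1 and *Hilpda* in 3 of the 6 sets of libraries that lack a replicate, with limma adjusted *p* up to 0.142 and 0.102. Neither was called without replicates 3, 4 or 6. The 2 libraries with the highest *Plin2*, replicates 3 and 4 of ipsilateral PC (6655 and 4295), also had the highest sums of monocyte and macrophage markers, 15553 and 16397 against at most 5379 in the remaining PC libraries. The neutrophil sum had a median of 32.5 in contralateral and of 3026 in ipsilateral PC, and was also highest in these libraries (13847 and 7021). *Hilpda* was highest in replicate 5 (1777), where these sums were 1620 and 50. The part of other myeloid cells in these values was not tested.

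The remaining genes were not called in pericytes. *Cd36* had values of 40, 73, 4, 0, 0 and 0 in contralateral PC and of 266, 256, 630, 165, 48 and 11 in ipsilateral PC, and was higher in 6 of 6 pairs. Its log2 fold change was 4.68 (SE 1.31, limma adjusted *p* = 0.105). *Fabp4* ranged from 14 to 85 in contralateral and from 79 to 320 in ipsilateral PC, with medians of 58.5 and 177.5, and was also higher in 6 of 6 pairs. Its log2 fold change was 1.93 (SE 0.52, limma adjusted *p* = 0.0968). *Fabp5* was higher in 6 of 6 pairs with a log2 fold change of 2.14 (SE 0.82, limma adjusted *p* = 0.224). *Soat1*, *Abca1* and *Abcg1* gave 1.31, 0.73 and 0.46, with 95% intervals of −0.24 to 2.86, −0.50 to 1.95 and −0.82 to 1.75. All 3 turned direction in replicates 5 and 6, at −0.47, −0.51 and −0.80, against 2.20, 1.34 and 1.10 in replicates 1 to 4, which held more microglial RNA. The part of that RNA in these changes was not tested.

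In astrocytes 0 of the 8 genes tested were called by limma, with 3 (*Plin2*, *Msr1* and *Cd36*) at an unadjusted *p* under 0.05. The background in AC was 0.334% of 15264 genes called higher and 0.00655% lower. *Plin2* ranged from 347 to 812 in contralateral AC, with a median of 525.5, and from 731 to 2659 in ipsilateral AC, with a median of 997. The hemispheres overlapped, although the gene was higher in 6 of 6 pairs, and the 95% interval of the log2 fold change reached from 0.47 to 1.88 (limma adjusted *p* = 0.228). *Hilpda* ranged from 98 to 243 and from 107 to 373, with a log2 fold change of 0.45 (95% interval −0.27 to 1.17). In AC the neutrophil sum had medians of 216.5 and 1170.5, and the monocyte and macrophage sum medians of 558 and 1721, in contralateral and ipsilateral libraries, and their part was not tested.

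*Fabp5* and *Soat1* were abundant in astrocytes in both hemispheres. *Fabp5* ranged from 1669 to 3483 in contralateral AC, with a median of 2153, and from 2183 to 2963 in ipsilateral AC, with a median of 2445.5. Its log2 fold change of 0.15 had the narrowest interval of the gene in any cell type (−0.24 to 0.54), and in replicates 5 and 6 alone it was −0.06. *Soat1* ranged from 1995 to 4265 and from 808 to 3658, with medians of 2855 and 2173.5 and a log2 fold change of −0.54 (95% interval −1.24 to 0.16). *Abca1* ranged from 2225 to 4726 and from 1040 to 3518, with a log2 fold change of −0.29 (95% interval −0.91 to 0.33), and *Abcg1* gave −0.32 (95% interval −1.20 to 0.56). The astrocyte libraries also held RNA of oligodendrocyte genes. The sum of 6 oligodendrocyte markers ranged from 48141 to 391125 in contralateral and from 83694 to 452654 in ipsilateral AC, against at most 38522 in any library of another cell type. Its part in the astrocyte levels was not tested.

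Outside microglia, *Msr1* was highest in the libraries with most microglial RNA. In ipsilateral EC it was 1294, 908, 3772, 415, 43 and 14 in replicates 1 to 6, and in contralateral EC 59, 128, 83, 7, 0 and 7. In ipsilateral PC it was 343, 1310, 4178, 2367, 0 and 0, and in contralateral PC 8, 210, 3, 1, 0 and 0. In ipsilateral AC it was 186, 1376, 2129, 465, 28 and 44, and in contralateral AC 30, 255, 12, 1, 5 and 0. The high values were thus all in replicates 1 to 4. The log2 fold changes were 4.13 (SE 1.42) in EC, 4.69 (SE 2.23) in PC and 4.67 (SE 1.35) in AC, with limma adjusted *p* of 0.24, 0.333 and 0.258.

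The summed level of 10 microglial genes that the other cell types should lack, such as *Csf1r* and *P2ry12*, was expressed as a percentage of its level in the microglia library of the same replicate and hemisphere. In replicates 1 to 4 on the ipsilateral side it ranged from 2.98% to 21.7% in EC, from 3.82% to 26.5% in PC and from 1.58% to 10.6% in AC. In replicates 5 and 6 it was at most 0.273%, 0.172% and 0.465%. *Msr1*, expressed in the same way, ranged from 3.44% to 28.7% in EC, from 3.42% to 31.8% in PC and from 1.85% to 16.2% in AC in replicates 1 to 4. In replicates 5 and 6 it was at most 0.583%, 0% and 0.409%. In each of the 3 cell types the ipsilateral library with the highest percentage of microglial genes, replicate 3, was also the one with the highest percentage of *Msr1*. The part of microglial RNA in the *Msr1* values was not tested.

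*Plin2* and *Hilpda* stood above these percentages. In ipsilateral EC *Plin2* was 25.2% to 49.7% of its microglial level in replicates 1 to 4 and 62.7% to 66.8% in replicates 5 and 6. In ipsilateral PC it was 12.1% to 50.7% and 31.8% to 32.4%. *Hilpda* in replicates 5 and 6 was 219% to 239% of its microglial level in EC and 169% to 211% in PC. In replicates 5 and 6 alone, where microglial genes were lowest, *Plin2* in EC gave a log2 fold change of 1.28 (limma adjusted *p* = 0.0465) and *Hilpda* one of 1.80 (limma adjusted *p* = 0.0155), and both were called. In PC the same libraries gave 1.22 for *Plin2* and 1.81 for *Hilpda* (limma adjusted *p* of 0.0872 and 0.066), and neither was called. Each of these fits held only replicates 5 and 6 of each hemisphere. *Cd36* in EC turned its sign in these libraries, at −1.33 against 4.79 in replicates 1 to 4, while in PC it was 4.60 against 4.71. The −1.33 rests on replicate 5, where *Cd36* went from 23 to 1, a value under the floor. In replicate 6 it rose from 43 to 83. As a percentage of its microglial level, *Cd36* in ipsilateral PC ranged from 13.8% to 36.8% in replicates 1 to 4 and from 1.09% to 8.53% in replicates 5 and 6. In ipsilateral EC these ranges were 7.45% to 26.6% and 0.178% to 8.19%. The part of microglial RNA in the values of *Plin2*, *Hilpda* and *Cd36* was not tested.

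**Figure D3:**
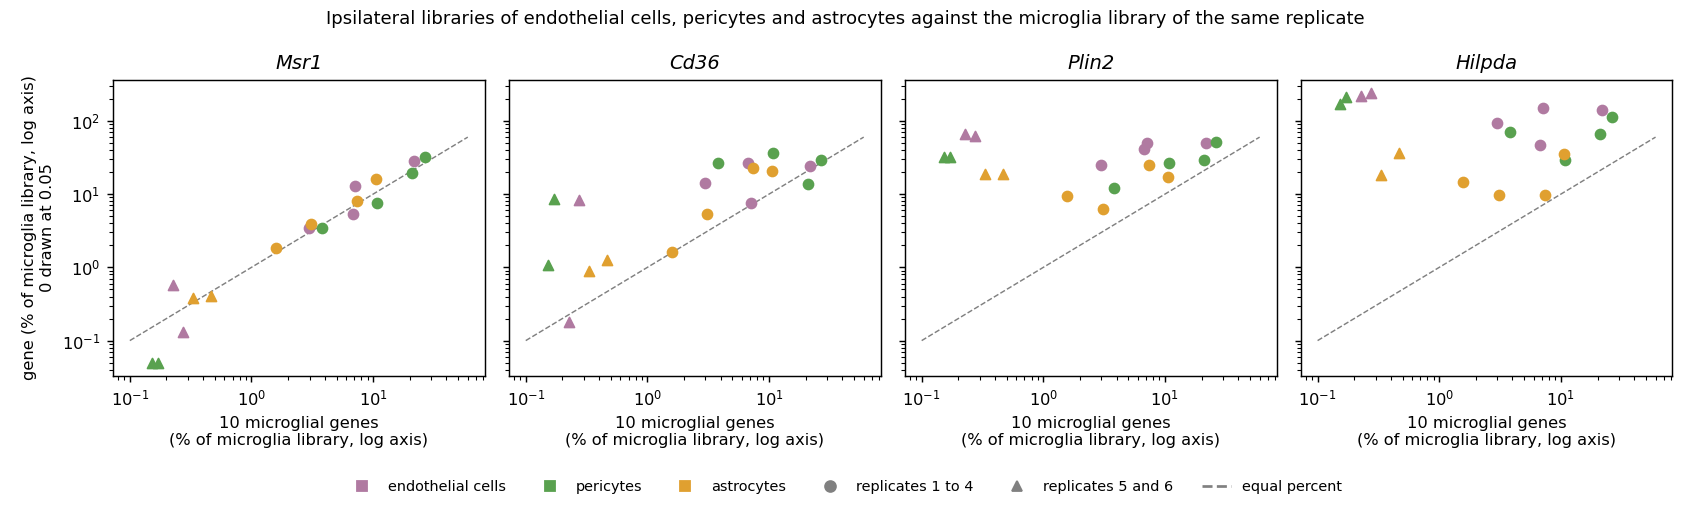
*Msr1*, *Cd36*, *Plin2* and *Hilpda* in ipsilateral EC, PC and AC, as a percentage of the microglia library of the same replicate, against the percentage of 10 microglial genes, on log axes, with circles for replicates 1 to 4, triangles for replicates 5 and 6 a dashed line for equal percentages and values of 0 drawn at the bottom. *Msr1* lies along the line from below 1% to 31.8%, whereas *Plin2* and *Hilpda* lie above it, by the widest margin in replicates 5 and 6.

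*Olr1* was at 0 in all 6 contralateral EC libraries and all 6 contralateral PC libraries. The ipsilateral values were 0, 4, 89, 33, 0 and 0 in EC and 0, 3, 11, 60, 0 and 15 in PC. In AC it reached 1 in a single contralateral library and 8 in a single ipsilateral library. *Olr1* was too low to test in PC and AC, and *Fabp4*, between 0 and 14, was too low in AC.

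Whether the change differed between cell types was tested in a joint model of all 48 libraries. The cell types were sorted from the same pools of mice, but this model treats the libraries as independent. In 60 tests, the 10 genes in each of the 6 pairs of cell types, limma called 0 differences at an adjusted *p* of at most 0.05, with 7 at an unadjusted *p* under 0.05. Over all 15003 genes the share called was 0.0267% for EC against PC, 0.06% for EC against AC, 0.273% for EC against MG, 0.00667% for PC against AC, 0.727% for PC against MG and 0.293% for AC against MG. The smallest adjusted *p* was 0.15, for *Plin2* in AC against MG, where the log2 change was 1.69 smaller in AC (SE 0.48, 95% interval of AC minus MG −2.66 to −0.72). *Plin2* in EC minus MG gave −1.28 (95% interval −2.25 to −0.31, limma adjusted *p* = 0.304), and *Fabp4* in EC minus MG gave −3.26 (95% interval −5.52 to −1.0, limma adjusted *p* = 0.242). For *Msr1* the interval of EC minus MG reached from −3.19 to 6.13, so neither a larger nor a smaller change in microglia could be told. With the replicate number as a block, the limma adjusted *p* of *Plin2* in AC against MG was 0.0552, and again 0 differences were called. With its pooled spread the joint model did not call the change of *Msr1*, *Cd36* and *Soat1* in MG either. The 0 differences therefore do not show that the changes were alike.

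The levels themselves differed between cell types in 78 of 120 tests, 41 of 60 on the contralateral and 37 of 60 on the ipsilateral side. On the contralateral side the 10 genes differed in 5 cases for EC against PC (35.4% of all genes), 7 for EC against AC (50.1%), 8 for EC against MG (42.6%), 6 for PC against AC (46.3%), 8 for PC against MG (48.9%) and 7 for AC against MG (51.7%). On the ipsilateral side the numbers were 2 (25.6%), 6 (44.5%), 8 (34.7%), 6 (41.3%), 7 (41.6%) and 8 (51.9%) in the same order.

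The order of the cell types for *Plin2* was not the same in the hemispheres. On the contralateral side its mean log2 level was 10.39 in EC and 10.21 in MG, which were not told apart (limma adjusted *p* = 0.717), and 9.19 in PC and 9.10 in AC, which were not told apart either (limma adjusted *p* = 0.84). The step from MG to PC was 1.01 (limma adjusted *p* = 0.0118). On the ipsilateral side MG stood first at 13.08, above EC at 11.98 (limma adjusted *p* = 0.00928), followed by PC at 11.24 (limma adjusted *p* = 0.111) and AC at 10.27 (limma adjusted *p* = 0.0192). *Hilpda* was highest in EC on both sides. Its step to the next cell type was 1.17 on the contralateral side (PC, limma adjusted *p* = 0.00457) and 0.38 on the ipsilateral side (MG, limma adjusted *p* = 0.419). AC held the lowest *Hilpda* level in both hemispheres, at 7.16 and 7.61.

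*Msr1* stood highest in MG, by 6.59 on the contralateral and 5.12 on the ipsilateral log2 scale over the next cell type (limma adjusted *p* of 0.00089 and 0.0114). *Cd36* was also highest in MG, by 3.13 over EC on the contralateral side (limma adjusted *p* = 0.0398) and by 2.98 over PC on the ipsilateral side (limma adjusted *p* = 0.0517). The neighbours below MG in either gene did not pass the test. *Abca1* was high in both glial cell types, with means of 12.16 in MG and 11.55 in AC on the contralateral side whose difference did not pass the test (limma adjusted *p* = 0.207). Its contralateral level was 2.11 lower in EC than in AC (limma adjusted *p* = 1.76e-05) and 0.93 lower in PC than in EC (limma adjusted *p* = 0.0643). On the ipsilateral side *Abca1* in MG exceeded AC by 1.26 (limma adjusted *p* = 0.00705). *Abcg1* stood in a clear order on the contralateral side, from 12.19 in MG to 10.25 in AC, 9.20 in EC and 7.93 in PC, and each step passed the test (limma adjusted *p* between 0.000103 and 0.0319).

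*Soat1* was highest in AC on the contralateral side at 11.47, against 10.32 in MG (limma adjusted *p* = 0.0751), and highest in MG on the ipsilateral side at 11.23, against 10.94 in AC (limma adjusted *p* = 0.688). On the ipsilateral side its step from AC to PC was 1.30 (limma adjusted *p* = 0.0528), and EC held the lowest *Soat1* level in both hemispheres, at 6.89 and 7.73. *Fabp5* was highest in AC, by 5.45 over MG on the contralateral side and by 2.95 on the ipsilateral side (limma adjusted *p* of 1.76e-07 and 0.00187). *Fabp4* was a gene of the vascular cells on the contralateral side, with mean log2 levels of 7.87 in EC and 5.58 in PC (limma adjusted *p* = 0.0201) against 0.98 in AC and 0.76 in MG. On the ipsilateral side EC and PC were not told apart, at 7.59 and 7.51 (limma adjusted *p* = 0.962), and PC exceeded MG by 3.76 (limma adjusted *p* = 0.000134). *Olr1* stood highest in MG, by 2.53 over AC on the contralateral side (limma adjusted *p* = 0.0188) and by 3.07 over PC on the ipsilateral side (limma adjusted *p* = 0.00594), where both cell types compared with MG were near the floor.

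Among other genes of lipid handling in microglia, 4 lists of related genes were tested. Over all 13300 genes tested in MG, 4.29% were called higher and 6.27% lower. Of 16 genes of the droplet coat and of droplet turnover, 3 rose (*Plin3*, *Abhd5* and *G0s2*) and 3 fell (*Lpin1*, *Pnpla2* and *Mgll*). *G0s2*, an inhibitor of the droplet lipase encoded by *Pnpla2*, rose from 28.2 ± 14.5 to 186 ± 133.7 (SD, *n* = 6, log2 fold change 2.57, limma adjusted *p* = 0.00432). *Lpin1*, a phosphatase of triglyceride synthesis, fell from 969 ± 187 to 248 ± 114 (log2 fold change −2.12, limma adjusted *p* = 0.00167). The lipase gene *Pnpla2* itself fell by 1.39 and *Mgll*, which encodes the lipase of monoglycerides, fell by 1.10 on the log2 scale. The median log2 fold change of this list was −0.31.

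Of 20 scavenger and lipoprotein receptors and related genes, 4 rose (*Marco*, *Lpl*, *Clec7a* and *Cxcl16*) and 1 fell (*Mertk*, a receptor for apoptotic cells, by 0.97 on the log2 scale), with a median log2 fold change of −0.02. *Lpl*, the lipase of lipoprotein triglycerides, rose from 1319 ± 264.5 to 20521 ± 7578 (log2 fold change 3.88, limma adjusted *p* = 1.43e-06). *Marco*, a class A scavenger receptor, rose from 2.0 ± 3.16 to 159.7 ± 133.7 (log2 fold change 5.93, limma adjusted *p* = 0.000563), from a contralateral level under the floor.

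Of 18 genes of sterol efflux and handling, 3 rose (*Ch25h*, *Nceh1* and *Tspo*) and 2 fell (*Apoe* and *Stard3*), with a median log2 fold change of 0.01. *Ch25h*, the enzyme that makes 25-hydroxycholesterol, rose from 59.3 ± 19.7 to 1176 ± 547 (log2 fold change 4.22, limma adjusted *p* = 4.33e-06). *Apoe*, the main apolipoprotein that accepts cholesterol in brain, went from 23435 ± 3533 to 14742.5 ± 3849 (log2 fold change −0.69, limma adjusted *p* = 0.0349) and was lower in 6 of 6 pairs, but was called in only 1 of the 6 sets of libraries that lack a replicate. Of 9 genes of fatty acid binding and lipid-sensing regulators, *Angptl4* and *Cpt1a* rose, with a median of 0.12, and each was called in at most 2 of those 6 sets. *Pnpla2*, *Mgll*, *Plin3*, *Abhd5*, *Clec7a*, *Cxcl16*, *Mertk*, *Nceh1*, *Tspo*, *Apoe*, *Stard3*, *Angptl4* and *Cpt1a* were named after their values had been seen. In EC, PC and AC limma called 0 of the 65, 67 and 68 genes of the 4 lists that were tested, with 12, 22 and 10 at an unadjusted *p* under 0.05. Over all genes tested, 0.362%, 0.441% and 0.334% were called higher and 0.128%, 0.581% and 0.00655% lower. At these shares, 0 calls in lists of this size tell nothing about the lists. The unadjusted counts have no share over all genes beside them and are a description.

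**Figure D4:**
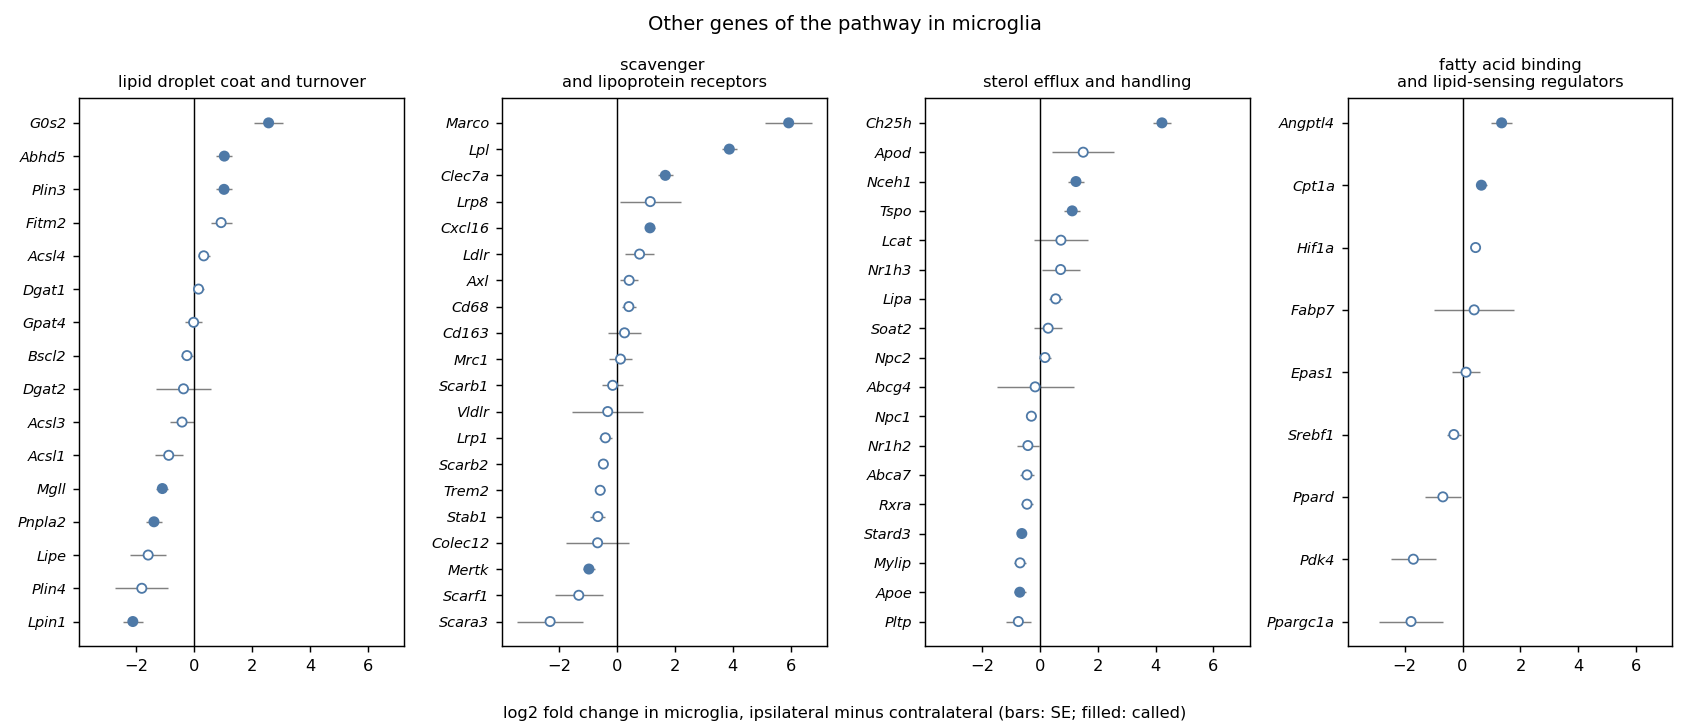
Log2 fold change in MG, ipsilateral minus contralateral, of the genes of 4 related lists, sorted within each list, with SE bars and filled points for called genes (*n* = 6 per hemisphere). Genes called in both directions stand in the droplet, receptor and sterol lists, from −2.12 for *Lpin1* to 5.93 for *Marco*.

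Over the 48 libraries, the gene whose log2 level was most like that of *Msr1* among 15003 genes was *Pilra*, a myeloid inhibitory receptor (Pearson's r = 0.956), followed by *Cybb*, the oxidase subunit of phagocytes (0.950). *Cd36* was most like *Il1rn*, the interleukin-1 receptor antagonist (0.835), and *Cybb* (0.833). *Plin2* was most like *Eef1g*, a translation elongation factor (0.913), and *Hilpda* like *Prelid1*, a mitochondrial lipid carrier (0.898). *Abca1* was most like *Cln3* (0.917), *Abcg1* like *Edem2* (0.933) and *Soat1* like *Abcd2*, a peroxisomal fatty acid transporter (0.899). *Fabp4* was most like *Ifitm2* (0.910) and *Fabp5* like *Cxcl14* (0.906), whereas the highest value for *Olr1* was 0.775, with *Cndp2*. The second in rank were *Ddx39* for *Plin2* (0.890), *Capg* for *Hilpda* (0.862), *Abhd12* for *Abca1* (0.910), *Atp6ap1* for *Abcg1* (0.918), *Scamp5* for *Soat1* (0.895), *AI662270* for *Olr1* (0.774), *Apold1* for *Fabp4* (0.887) and *Mt3* for *Fabp5* (0.882). These points share cell types, pools and normalization, and the values are a description.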

How the data were processed

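RNA of sorted cells from ipsilateral and contralateral hemispheres (48 libraries, 4 cell types, *n* = 6 per group) was read single-end after SMART-Seq HT amplification. The deposited values are a score: per the labels and the study's methods, the authors trimmed reads with Trimmomatic 0.38, aligned them to GRCm38 with STAR 2.6.1d, counted uniquely assigned reads per gene with featureCounts 1.6.3, leaving out reads that map to several places or genes, and normalized the counts with DESeq2 1.18.1, and the deposited values are rounded to whole numbers. Because these values are no longer raw read counts, no count model was fitted here.

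Columns were assigned by their names (0 columns of samples were left unused), which for 12 libraries contradict the sample titles. Genes whose mean reached 10 in the libraries fitted were tested on log2(value + 1) with limma 3.58.1 (R 4.3.3, trend, two-sided, Benjamini-Hochberg adjustment over all genes tested), per cell type over 12 libraries, or over 48 libraries for differences and levels. Fold changes are on this scale, which understates those of low genes. The fit was tested on simulated data. Replicates are pools of mice. Per the study's methods, both hemispheres of the pooled mice were sorted, so each pool gave libraries of both sides. The replicate numbers are shared between hemispheres, but the sources used here do not state that a shared number marks the same pool. The main fits do not use this pairing. A fit with the replicate number as a block was an alternative. Estimated depth ranged from 4900000 to 17100000 reads on genes, and the limit of 3 reads covers counting error only.

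The genes and lists were chosen with earlier results of these data known. Besides the 10 genes, the text names up to 5 called genes per cell type with the largest change from 4 related lists, and the 2 genes most alike by Pearson's r. List genes outside this rule are stated as such. Promoter sequences came from RefSeq (GRCm38.p6), and exon lengths from GENCODE M21, which held 24922 of the 24973 gene identifiers.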

Additional observations from a re-analysis of the deposited data

Results flagged for a closer look

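In 78 groups of 6 libraries, 16 values stood farther from the remaining libraries of their group than Dixon's 95% limit allows. The 5% of groups that chance gives holds for independent, normally distributed values. Here the values were untransformed counts, some near the floor, and the groups share libraries. The number 16 is therefore not read as an excess. In replicate 2 these were *Hilpda* at 2481 in contralateral EC (others 478 to 763) and at 2914 in ipsilateral MG (others 643 to 1097), *Msr1* at 210 in contralateral PC (others 0 to 8) and at 255 in contralateral AC (others 0 to 30), and *Fabp5* at 348 in contralateral EC (others 0 to 43) and at 136 in contralateral MG (others 25 to 58). The low values of *Fabp4* in contralateral MG (7, others 0 to 2) and of *Olr1* in ipsilateral AC (8, others 0 to 1) were from the same replicate number.

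In replicate 3 of ipsilateral EC 4 genes stood apart, with *Msr1* at 3772 (others 14 to 1294), *Cd36* at 520 (others 1 to 185), *Soat1* at 758 (others 75 to 307) and *Olr1* at 89 (others 0 to 33). This library had the largest share of microglial genes in ipsilateral EC, 21.7% of the microglia library. *Cd36* in replicate 3 of ipsilateral AC was 439 (others 5 to 157), with microglial genes at 10.6%. The part of microglial RNA in these values was not tested. The remaining 3 were *Olr1* at 60 in replicate 4 of ipsilateral PC (others 0 to 15), *Soat1* at 1750 in replicate 6 of contralateral MG (others 1090 to 1303) and *Olr1* at 1 in replicate 6 of contralateral AC (others 0).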

How the results depend on the processing

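Of the 10 genes, 1 was called in EC, 2 in PC, 0 in AC and 6 in MG. With the replicate number as a block (replicate block) the number was 2 in EC (*Msr1* added, limma adjusted *p* = 0.0371), 3 in PC (*Cd36* added, 0.0416) and 1 in AC (*Msr1*, 0.019), and no other call of the 10 genes changed. Over all genes the block gave 73 calls in EC, 226 in PC, 242 in AC and 1468 in MG. Without it, the calls higher and lower were 48 and 17 in EC, 60 and 79 in PC, 51 and 1 in AC, and 570 and 834 in MG. The added calls thus came with more calls over all genes. The numbers under the other settings below are given without a share over all genes. Each pool gave libraries of both hemispheres, but the sources used here tie single libraries by a number alone. Deviations of same-numbered libraries from their group means had a mean r of 0.227, 0.227, 0.38 and 0.135 in EC, PC, AC and MG. For different numbers the mean r was −0.039, −0.045, −0.076 and −0.026. The lowest r of a same-numbered pair was 0.010, −0.073, 0.019 and −0.028, and 3, 4, 5 and 3 of 6 pairs were above 0.1. Of the 6 ipsilateral libraries 3, 3, 4 and 2 correlated best with their own number, and of the contralateral ones 3, 4, 5 and 3. Whether a shared number marks the same mice was thus not settled, and calls that change with the block depend on it. Replicates 1 to 4 alone gave 0 in EC and 0 in PC, and replicates 5 and 6 alone gave 2 in EC and 0 in PC. These sets as a covariate gave 2 in EC, 4 in PC and 1 in AC. Leaving out each replicate gave 0 to 2 in EC and 0 to 2 in PC. Cell types taken from the titles gave 8 in PC and 6 in MG, the latter 4 higher and 2 lower (*Plin2*, *Hilpda*, *Abca1*, *Abcg1*, *Fabp4* and *Fabp5*). By *Csf1r* and *Pdgfrb* these title fits set PC against MG libraries across the hemispheres, so they do not measure a stroke change within a cell type. The joint fit of 48 libraries gave 3 in MG, without *Msr1*, *Cd36* and *Soat1* (limma adjusted *p* of 0.375, 0.108 and 0.369). With replicates 5 and 6 alone the log2 fold change had the opposite sign for *Cd36* (−1.33), *Soat1* (−0.66) and *Fabp4* (0.70) in EC, for *Abca1* (−0.51), *Abcg1* (−0.80) and *Soat1* (−0.47) in PC and for *Fabp5* (−0.06) in AC, all of which were not called. For *Cd36* in EC this rests on replicate 5, since replicate 6 rose. *Fabp4* in EC ranged from −0.71 to 0.12 with a replicate left out. The cause of these changes was not tested, apart from the fewer libraries in the smaller sets. Of the values of single genes, the titles left out, 617 kept direction and side of the threshold, 12 were newly past it, 20 were no longer past it and 8 reversed. Depth limits *Olr1* in EC, PC and AC and *Fabp4* in AC and contralateral MG, and the loss of raw counts leaves the counting error of low genes outside the test.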
